A study of Mus musculus with 8 samples.

Results

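The 32 genes described here encode proteins that fold, check and discard proteins in the endoplasmic reticulum (ER), together with the sensors and the transcription factor of the unfolded protein response. They were taken by gene symbol from a list of names, drawn up with earlier results of these data known. All 32 were found among the 20258 rows with a symbol in the authors' table, and all 32 were among the 13615 genes that could be tested, since none had the same value in every library. The cells were macrophages grown from the bone marrow of C57BL/6 mice. The 3 groups were 3 libraries of macrophages kept for 24 h with bacterial lipopolysaccharide and interferon gamma together (LPS plus IFNg, the usual stimulus of classical activation), 3 libraries of macrophages kept with IL4 (the cytokine used for alternative activation), and 2 libraries of unstimulated macrophages. The time given for the IL4 and unstimulated libraries is also 24 h. No genetic change is given for any group. The labels do not say whether the libraries of a group came from separate mice or cultures, so a p-value here reflects how libraries of a group vary among themselves, and that variation may be technical.

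Proteins that will be secreted, placed in a membrane or sent to lysosomes enter the ER through the Sec61 channel, are folded there by chaperones and disulfide enzymes, and are sent back to the cytosol for degradation when folding fails. When unfolded protein accumulates, 3 sensors in the ER membrane respond: IRE1 (encoded by Ern1) splices the mRNA of the transcription factor XBP1, ATF6 is cut to release a transcription factor, and PERK (encoded by Eif2ak3) slows translation and favours translation of ATF4. XBP1 and ATF6 are known to raise the transcription of the chaperones and of the degradation machinery, which macrophages need for the cytokines, receptors and lysosomal enzymes they make. The libraries measure mRNA level only, so neither splicing of Xbp1 nor cutting of ATF6 was seen.

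Levels are log2 values that the authors quantile normalised, in which a difference of 1 stands for a doubling, and come from 3' end sequencing, which reads the end of each polyadenylated transcript. Depth cannot be read from such values. Among the tested genes, 2964 to 2985 were listed at 0 in the LPS plus IFNg libraries, 3204 to 3568 in the IL4 libraries, and 1577 and 2588 in the unstimulated libraries. Of the members, 29 had a mean of at least 5 over the 8 libraries, and only Sil1 was listed at 0 anywhere, in IL4 replicate 2. All 8 macrophage markers looked for had a mean of at least 5 with LPS plus IFNg and in unstimulated cells, and 6 of 8 with IL4. Their summed log2 level was 80.4 to 82.4 with LPS plus IFNg, 68.8 to 70.8 with IL4, and 82.0 to 82.1 in unstimulated cells. Cd14 (mean 4.68) and Fcgr1 (3.58) were the macrophage markers under 5 with IL4. In limma, Lyz2, Mertk, Cd14 and Fcgr1 were lower with IL4 against unstimulated cells. With LPS plus IFNg, Mertk, Cd14 and Fcgr1 were higher against IL4, and against unstimulated cells Fcgr1 was higher and Csf1r and Lyz2 lower. Markers of plasma and B cells, cells with much ER, had summed levels that overlapped among the groups, at 10.2 to 14.5 with LPS plus IFNg, 5.01 to 17.98 with IL4, and 9.37 to 12.3 in unstimulated cells, and Pou2af1 was at 0 in every library; of these markers Sdc1 was higher in every LPS plus IFNg library (7.29 to 7.70) than with IL4 (5.01 to 6.72) or in unstimulated cells (6.78 and 6.72), without a pass. Neutrophil and precursor markers did differ, with sums over 8 genes of 15.9 to 19.1 with LPS plus IFNg (Mpo, Prtn3 and Ctsg at 0), 26.2 to 40.1 with IL4, and 39.1 to 39.8 in unstimulated cells, with Ltf and S100a8 lower with LPS plus IFNg against both other groups in limma. Prtn3 was also at 0 in every IL4 library and Ctsg in both unstimulated libraries. Of the genes at 0 with LPS plus IFNg, only Mpo was above 0 in every other library. Fibroblast markers summed to 35.8 to 45.7 with LPS plus IFNg, 34.6 to 38.7 with IL4, and 40.7 to 41.2 in unstimulated cells, and none of the 6 passed in a comparison (unadjusted p under 0.05 in 1 gene for LPS plus IFNg against IL4, 1 for LPS plus IFNg against unstimulated cells and 3 for IL4 against unstimulated cells). Of the 6 dendritic cell markers, Ccr7 was higher with LPS plus IFNg against both other groups and Zbtb46 lower against IL4. The part of these differences in the results below was not tested.

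As deposited, most of the folding genes stood highest in the macrophages kept with IL4. The group mean was highest with IL4 for 23 of the 32 members (71.9%, against 31.6% of all tested genes), with LPS plus IFNg for 4 (12.5%, against 35.8%) and in unstimulated cells for 5 (15.6%, against 32.6%). The median of the 32 levels was 8.14 to 8.30 in the LPS plus IFNg libraries, 8.45 to 8.90 in the IL4 libraries, and 7.88 and 8.02 in the unstimulated libraries, so the IL4 libraries did not overlap the others. This order depended on the scaling: with the mean of 13 housekeeping genes set equal in each library, IL4 gave the highest mean for 18 members (56.2%, against 22.8% of all tested genes), LPS plus IFNg for 13 (40.6%, against 60.3%) and unstimulated cells for 1. The library medians were then 8.38 to 8.80 with LPS plus IFNg and 8.20 to 8.87 with IL4, which overlapped, and 7.61 and 7.74 in unstimulated cells. As deposited, LPS plus IFNg gave the highest mean of Dnajb9, Ero1l, Ero1lb and Derl1, and unstimulated cells that of Ern1, Atf6, Sil1, Edem1 and Syvn1. Since each value is measured in RNA pooled from many cells, fewer cells of a type and less RNA per cell cannot be told apart.

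**Figure D1:**
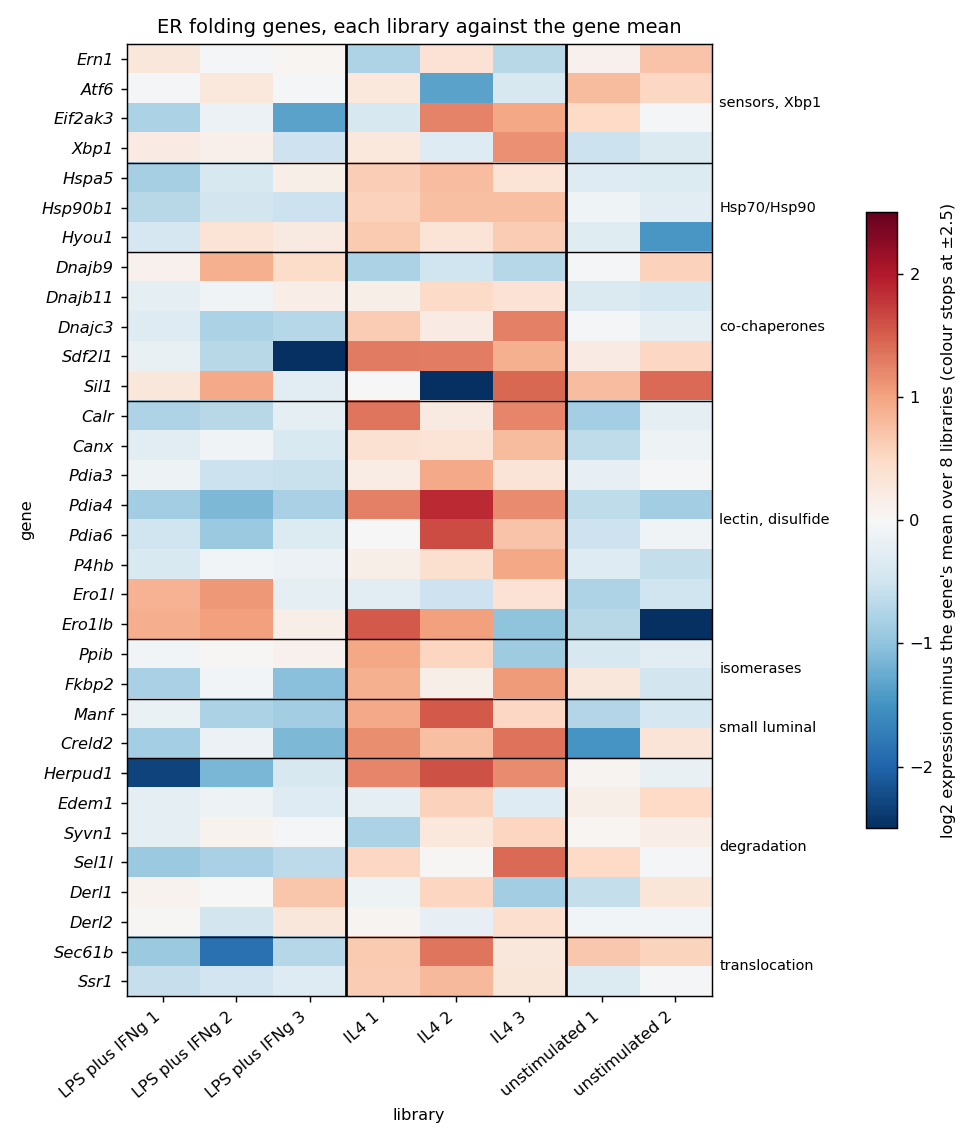
Log2 expression of each of the 32 members in each of the 8 libraries (columns: LPS plus IFNg, IL4, unstimulated), as the difference from the gene's own mean over the 8 libraries, with genes (rows) grouped by role. Red is above and blue below the gene's mean; the 3 IL4 columns are mostly red for the chaperones, disulfide enzymes and small luminal proteins, and mixed for the sensors and degradation genes.

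Many of these genes are known to carry the ER stress response element (ERSE) in their promoters, which ATF6 and XBP1 bind together with the factor NF-Y. The elements are shown first, since 9 of the members share them. The window was the RefSeq promoter (build GRCm38.p6) from 250 bases before to 50 bases after the transcription start, which the table held for 27 of the 32 members; Atf6, Hyou1, Sil1, Manf and Derl1 had no entry. An ERSE was counted where CCAAT is followed, after 9 bases, by CCACG on either strand, and it was present in the promoters of 9 of 27 member genes (33.3%), against 37 of 27025 genes in the table (0.137%). Capitals mark CCAAT and CCACG, and each element is written on its own strand.
Hspa5 (chr2:34772025-34772043, plus strand): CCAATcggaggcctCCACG
Hsp90b1 far element (chr10:86705638-86705656, minus strand): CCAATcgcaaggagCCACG
Hsp90b1 near element (chr10:86705533-86705551, plus strand): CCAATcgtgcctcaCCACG
Dnajc3 (chr14:118937827-118937845, plus strand): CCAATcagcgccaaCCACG
Calr (chr8:84847075-84847093, plus strand): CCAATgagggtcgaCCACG
Canx (chr11:50325800-50325818, minus strand): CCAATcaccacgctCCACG
Pdia6 (chr12:17266491-17266509, plus strand): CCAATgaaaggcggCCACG
Ero1lb (chr13:12565682-12565700, minus strand): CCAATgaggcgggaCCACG
Creld2 (chr15:88819520-88819538, minus strand): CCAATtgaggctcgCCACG
Syvn1 (chr19:6046532-6046550, plus strand): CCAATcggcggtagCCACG

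Hsp90b1 held 2 elements and the other 8 genes 1 each. The elements ended between 194 and 26 bases before the start, as the map of elements shows. The 9 bases between CCAAT and CCACG differed from gene to gene, with a GC share of 66.7% or 77.8%. A shorter form, ERSE-II, has ATTGG and CCACG separated by 1 base, and was present in 2 of 27 member genes (7.41%), against 12 of 27025 genes (0.0444%). Both are shown with ATTGG and CCACG in capitals.
Dnajb11 (chr16:22857852-22857862, plus strand): ATTGGcCCACG
Herpud1 (chr8:94386377-94386387, plus strand): ATTGGgCCACG

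The UPRE, searched as TGACGTGG on both strands, was in the promoters of 0 of 27 member genes, against 193 of 27025 genes (0.714%), which says only that these letters are not in these windows. The core CCACG alone, which the ERSE and ERSE-II contain, was in 23 of 27 member genes (85.2%), against 9589 genes (35.5%). These matches are descriptions of sequence and were not tested for binding.

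**Figure D2:**
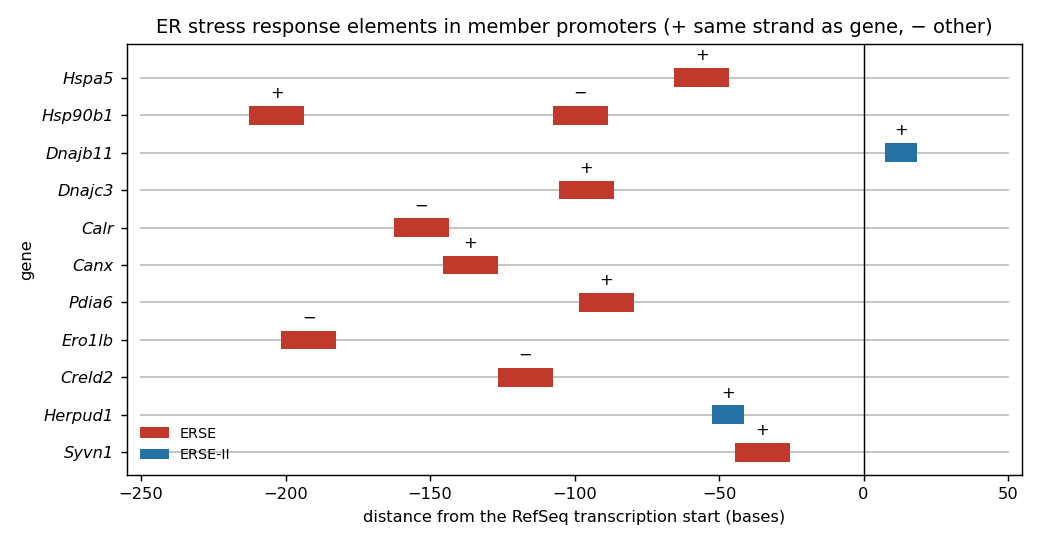
Position of each ERSE and ERSE-II match in member promoters, with distance from the RefSeq transcription start in bases on the horizontal axis and genes on the vertical axis; marks give the strand relative to the gene. ERSE matches lie between 212 and 26 bases before the start, and the ERSE-II matches lie 52 bases before the start in Herpud1 and 8 bases after it in Dnajb11.

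Of the 9 genes with an ERSE, 3 fell with LPS plus IFNg against IL4: Hsp90b1, Calr and Dnajc3. Their whole promoters are printed so that the element can be seen in place, written on the strand of the gene, with the ends of each ERSE in capitals (CGTGG and ATTGG where the element lies on the opposite strand).
Hsp90b1 (chr10:86705395-86705694, minus strand): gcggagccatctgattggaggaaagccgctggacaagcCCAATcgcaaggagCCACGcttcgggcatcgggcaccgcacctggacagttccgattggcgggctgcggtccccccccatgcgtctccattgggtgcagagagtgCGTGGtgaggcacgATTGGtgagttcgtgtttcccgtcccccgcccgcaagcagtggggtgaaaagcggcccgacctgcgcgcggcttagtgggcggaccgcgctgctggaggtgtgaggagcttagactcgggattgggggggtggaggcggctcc
Calr (chr8:84846882-84847181, minus strand): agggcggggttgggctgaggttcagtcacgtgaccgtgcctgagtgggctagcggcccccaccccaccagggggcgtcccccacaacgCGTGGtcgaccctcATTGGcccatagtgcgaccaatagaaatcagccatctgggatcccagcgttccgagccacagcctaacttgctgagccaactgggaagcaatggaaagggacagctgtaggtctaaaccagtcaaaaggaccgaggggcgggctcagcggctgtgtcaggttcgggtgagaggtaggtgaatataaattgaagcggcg
Dnajc3 (chr14:118937682-118937981, plus strand): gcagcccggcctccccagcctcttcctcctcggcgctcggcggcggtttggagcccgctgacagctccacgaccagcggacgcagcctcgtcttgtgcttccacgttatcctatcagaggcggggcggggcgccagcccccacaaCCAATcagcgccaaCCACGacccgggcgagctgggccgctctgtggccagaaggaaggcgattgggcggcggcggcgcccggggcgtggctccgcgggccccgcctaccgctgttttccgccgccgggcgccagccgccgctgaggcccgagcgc

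Between LPS plus IFNg and IL4, the median log2 difference was -1.26 over the 9 genes with an ERSE, of which 3 fell, and -0.80 over the 18 genes with a promoter but no ERSE, of which 5 fell. Of all tested genes, 6.96% fell. The 18 genes without an ERSE include Dnajb11 and Herpud1, which hold an ERSE-II, and Herpud1 was 1 of the 5 that fell and had the lowest difference. For IL4 against unstimulated cells, the medians were 0.90 with 8 of 9 differences positive, and 0.57 with 15 of 18 positive. For LPS plus IFNg against unstimulated cells, they were -0.14 with 2 of 9 positive, and -0.28 with 7 of 18 positive. The spread within each set was wide, from -1.80 to 0.17 and from -2.61 to 1.16 for LPS plus IFNg against IL4, so the 2 sets overlapped over most of their range.

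None of the 4 genes of the sensors and Xbp1 passed the test in any comparison, with 1 at an unadjusted p under 0.05 in limma for LPS plus IFNg against IL4, 0 for LPS plus IFNg against unstimulated cells and 1 for IL4 against unstimulated cells. Ern1, the IRE1 kinase and RNase, had log2 levels of 6.87, 6.53 and 6.62 with LPS plus IFNg, 5.81, 6.95 and 5.89 with IL4, and 6.68 and 7.29 in unstimulated cells. The groups overlapped, and the log2 difference was 0.45 for LPS plus IFNg against IL4 (limma adjusted p = 0.501). Atf6, the membrane-bound transcription factor, stood at 8.48, 8.79 and 8.47 with LPS plus IFNg, 8.78, 7.19 and 8.13 with IL4, and 9.31 and 9.05 in unstimulated cells. Both unstimulated libraries lay above all 6 stimulated ones, but the differences of -0.60 for LPS plus IFNg (adjusted p = 0.527) and -1.14 for IL4 (adjusted p = 0.336) against unstimulated cells did not pass. Eif2ak3, the PERK kinase, had levels of 4.96, 5.60 and 4.40 with LPS plus IFNg, 5.33, 6.99 and 6.71 with IL4, and 6.24 and 5.72 in unstimulated cells. The LPS plus IFNg libraries lay below both unstimulated ones and overlapped IL4 replicate 1, and the difference from IL4 was -1.36 (adjusted p = 0.189). Xbp1, whose spliced mRNA encodes the transcription factor of the IRE1 branch, had levels of 8.72, 8.64 and 7.99 with LPS plus IFNg, 8.77, 8.19 and 9.66 with IL4, and 7.97 and 8.15 in unstimulated cells. All IL4 libraries lay above both unstimulated ones, IL4 replicate 2 only just so, and the difference was 0.82 with a 95% interval of -0.20 to 1.83 (adjusted p = 0.506).

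The Hsp70 and Hsp90 chaperones were at their highest with IL4. Hsp90b1, the ER Hsp90 (GRP94) that folds integrins and Toll-like receptors, had log2 levels of 12.64, 12.87 and 12.80 with LPS plus IFNg, 13.92, 14.09 and 14.09 with IL4, and 13.24 and 13.07 in unstimulated cells. The 3 groups did not overlap, with unstimulated cells in between. It fell by 1.26 with LPS plus IFNg against IL4 (SE 0.20, adjusted p = 0.0065), while the differences from unstimulated cells, 0.88 with IL4 (adjusted p = 0.142) and -0.38 with LPS plus IFNg (adjusted p = 0.408), did not pass. Hspa5, the ER Hsp70 (BiP) that also holds the sensors inactive, had levels of 10.79, 11.21 and 11.77 with LPS plus IFNg, 12.24, 12.39 and 11.96 with IL4, and 11.30 and 11.28 in unstimulated cells. Every IL4 library lay above every other library, and the LPS plus IFNg libraries lay on both sides of the unstimulated ones. The difference was -0.94 for LPS plus IFNg against IL4 with a 95% interval of -1.57 to -0.31 (adjusted p = 0.0645), 0.90 for IL4 against unstimulated cells (adjusted p = 0.270) and -0.03 for LPS plus IFNg against unstimulated cells with an interval of -0.74 to 0.67. Hyou1, a large Hsp70 relative that helps exchange nucleotide on BiP, ranged from 6.39 to 7.15 with LPS plus IFNg, from 7.15 to 7.47 with IL4, and from 5.35 to 6.52 in unstimulated cells, and passed in no comparison.

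Of the 5 partners of BiP, only Dnajc3 passed. Dnajc3, a J-domain protein of the ER lumen (p58IPK), had levels of 8.83, 8.36 and 8.43 with LPS plus IFNg, 9.77, 9.36 and 10.41 with IL4, and 9.11 and 8.91 in unstimulated cells. The groups did not overlap, and it fell by 1.30 with LPS plus IFNg against IL4 (SE 0.29, adjusted p = 0.0247). This call was lost when any of 5 libraries was left out (adjusted p from 0.0614 to 0.0832): LPS plus IFNg 2 or 3, IL4 1, or either unstimulated library. Dnajb11, another J-domain protein that brings clients to BiP, lay between 9.20 and 9.60 with LPS plus IFNg, between 9.57 and 9.90 with IL4, and at 9.07 and 8.99 in unstimulated cells, so both stimulated groups lay above the unstimulated one. Sdf2l1, which works with Dnajb11, had 4.62, 4.12 and 1.48 with LPS plus IFNg, 6.11, 6.08 and 5.68 with IL4, and 5.02 and 5.31 in unstimulated cells; LPS plus IFNg replicate 3 made its spread the widest of the members in that group (SD 1.69). Dnajb9, a J-domain protein that keeps IRE1 quiet, had the opposite order, with every LPS plus IFNg library (5.79, 6.59 and 6.16) above every IL4 library (4.90, 5.19 and 4.97), and 5.66 and 6.26 in unstimulated cells, but its difference of 1.16 from IL4 did not pass (adjusted p = 0.113). Sil1, a nucleotide exchange factor of BiP, had 4.86, 5.51 and 4.29 with LPS plus IFNg, 4.55, 0 and 6.00 with IL4, and 5.34 and 5.97 in unstimulated cells, so the library listed at 0 sets its IL4 mean.

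The lectin chaperones and disulfide enzymes held the member with the lowest adjusted p. Pdia4 (ERp72), a protein disulfide isomerase, had log2 levels of 9.59, 9.34 and 9.65 with LPS plus IFNg, 11.72, 12.32 and 11.65 with IL4, and 9.82 and 9.60 in unstimulated cells. All 3 IL4 libraries lay far above the other 5, which overlapped each other. It fell by 2.37 with LPS plus IFNg against IL4 (SE 0.22, adjusted p = 0.000814) and was the only member to rise with IL4 against unstimulated cells, by 2.18 (SE 0.25, adjusted p = 0.0134). With LPS plus IFNg against unstimulated cells the difference was -0.19, with an interval of -0.76 to 0.39. The rise with IL4 did not pass without unstimulated replicate 2 (adjusted p = 0.0577) or when only the IL4 and unstimulated libraries were fitted (adjusted p = 0.0906). Calr (calreticulin), a lectin chaperone that holds calcium, had levels of 11.27, 11.34 and 11.79 with LPS plus IFNg, 13.37, 12.25 and 13.25 with IL4, and 11.18 and 11.79 in unstimulated cells. The IL4 libraries lay above all others, though IL4 replicate 2 stood about 1 unit below the other two, and LPS plus IFNg and unstimulated libraries overlapped. Calr fell by 1.49 with LPS plus IFNg against IL4 (SE 0.35, adjusted p = 0.0313), a call lost when any library other than IL4 replicate 2 was left out (adjusted p from 0.0516 to 0.0998).

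In 4 further genes of this role IL4 was also highest, without a pass. Pdia3 (ERp57, the partner of calreticulin and calnexin), Pdia6, P4hb (the classical protein disulfide isomerase) and Canx (calnexin, the membrane-bound lectin chaperone) each had all 3 IL4 libraries above all other libraries. The log2 difference of LPS plus IFNg from IL4 was -0.90 in Pdia3 (adjusted p = 0.0579), -0.75 in Canx (adjusted p = 0.0597), -1.38 in Pdia6 (adjusted p = 0.0709) and -0.71 in P4hb (adjusted p = 0.113). Ero1l and Ero1lb, the oxidases that recharge disulfide isomerases, had another order. Ero1l had levels of 8.95, 9.18 and 7.84 with LPS plus IFNg, 7.80, 7.56 and 8.45 with IL4, and 7.31 and 7.60 in unstimulated cells. Every LPS plus IFNg library lay above both unstimulated ones, and the difference of 1.21 did not pass (adjusted p = 0.184), but passed when LPS plus IFNg replicate 3 was left out. Ero1lb lay between 4.25 and 5.14 with LPS plus IFNg, between 3.11 and 5.65 with IL4, and at 3.41 and 1.15 in unstimulated cells, where the 2 libraries were far apart.

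**Figure D3:**
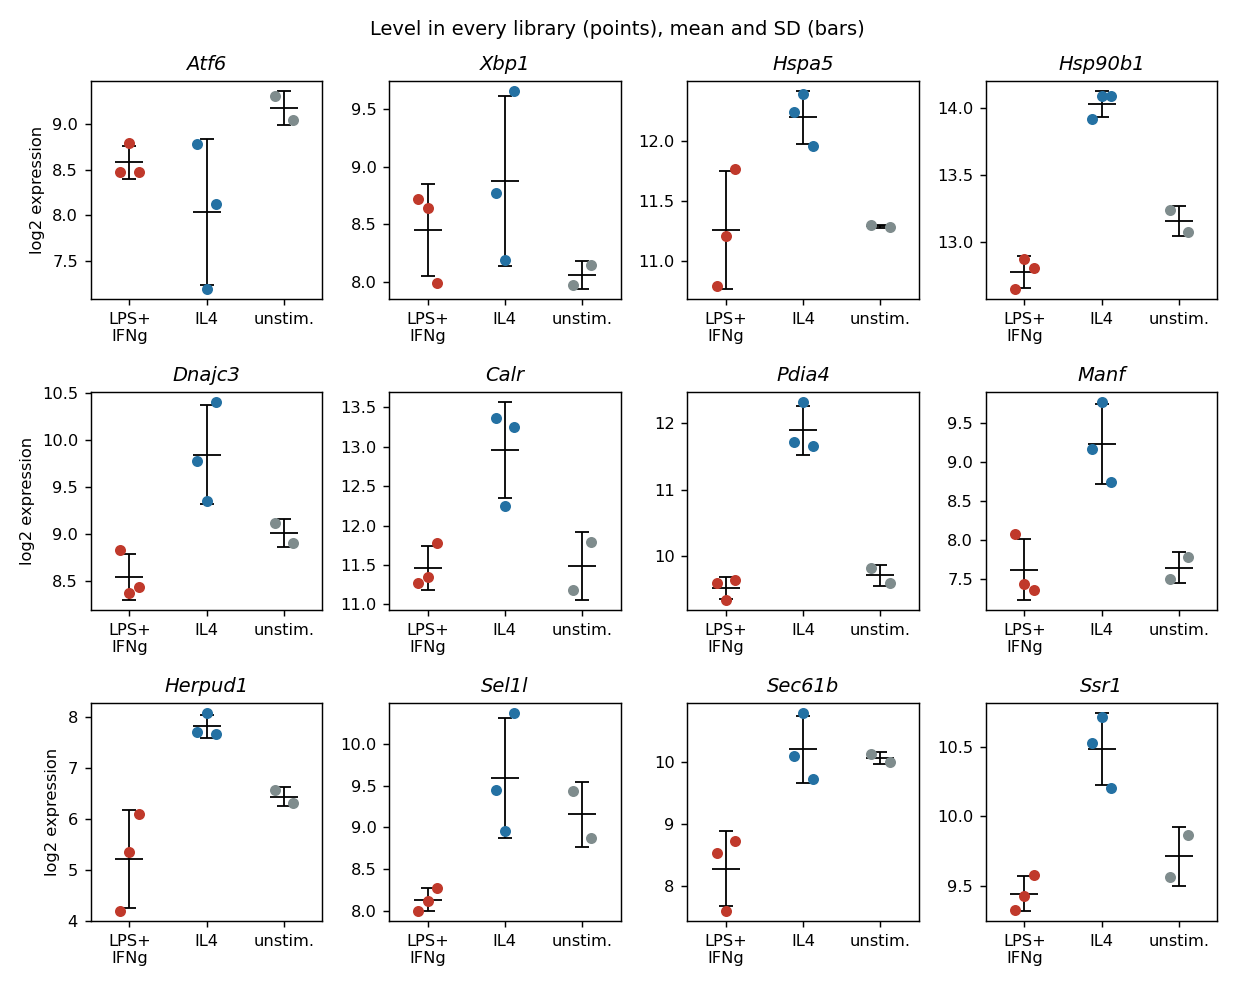
Log2 expression of the 9 members that passed the test in a comparison and of Hspa5, Xbp1 and Atf6, 1 panel a gene, with groups on the horizontal axis in the order LPS plus IFNg, IL4, unstimulated. Points are libraries, and bars are the mean and SD (n = 3, 3 and 2). Pdia4 averaged 9.52 with LPS plus IFNg, 11.90 with IL4 and 9.71 in unstimulated cells; Sec61b averaged 8.28 with LPS plus IFNg, 10.20 with IL4 and 10.06 in unstimulated cells.

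Both small luminal proteins that ER stress is known to induce were high with IL4. Manf, a secreted factor that binds BiP, had levels of 8.08, 7.44 and 7.36 with LPS plus IFNg, 9.18, 9.77 and 8.75 with IL4, and 7.51 and 7.79 in unstimulated cells. The IL4 libraries lay above all others, and the other groups overlapped. Manf fell by 1.61 with LPS plus IFNg against IL4 (SE 0.32, adjusted p = 0.0167), a call lost without LPS plus IFNg replicate 2 (adjusted p = 0.0613), LPS plus IFNg replicate 3 (0.0575) or unstimulated replicate 2 (0.0533). Creld2 had 6.19, 6.90 and 5.92 with LPS plus IFNg, 8.21, 7.79 and 8.40 with IL4, and 5.57 and 7.37 in unstimulated cells, and its difference of -1.80 between LPS plus IFNg and IL4 missed the threshold (adjusted p = 0.0588). The prolyl isomerases, which turn proline bonds during folding, did not pass: Fkbp2 lay between 5.95 and 6.92 with LPS plus IFNg, between 7.14 and 8.07 with IL4, and at 7.27 and 6.54 in unstimulated cells. Ppib (cyclophilin B) lay between 8.12 and 8.28 with LPS plus IFNg, between 7.30 and 9.14 with IL4, and at 7.78 and 7.90 in unstimulated cells.

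Among the 6 genes of ER-associated degradation, Herpud1 and Sel1l fell with LPS plus IFNg against IL4, both of them parts of the complex around the ubiquitin ligase HRD1. Herpud1 had levels of 4.18, 5.34 and 6.10 with LPS plus IFNg, 7.71, 8.08 and 7.67 with IL4, and 6.57 and 6.31 in unstimulated cells. The 3 groups did not overlap, and the LPS plus IFNg libraries were spread over nearly 2 units. It fell by 2.61 with LPS plus IFNg against IL4 (SE 0.49, adjusted p = 0.0132). Sel1l, the adaptor that stabilises HRD1, had levels of 8.004, 8.13 and 8.28 with LPS plus IFNg, 9.45, 8.96 and 10.36 with IL4, and 9.43 and 8.88 in unstimulated cells. The LPS plus IFNg libraries lay below all others, while IL4 and unstimulated libraries overlapped. Sel1l fell by 1.45 with LPS plus IFNg against IL4 (SE 0.36, adjusted p = 0.0379), a call lost when any library other than IL4 replicate 2 or 3 was left out (adjusted p from 0.0779 to 0.106). Edem1, which picks misfolded glycoproteins, had 10.94, 11.05 and 10.84 with LPS plus IFNg, 10.95, 11.76 and 10.85 with IL4, and 11.33 and 11.68 in unstimulated cells. Syvn1, HRD1 itself, lay between 6.48 and 6.81 with LPS plus IFNg, between 5.95 and 7.27 with IL4, and at 6.78 and 6.89 in unstimulated cells. The channel proteins Derl1 and Derl2 overlapped among all groups.

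Both genes of entry into the ER fell with LPS plus IFNg against IL4. Sec61b, the beta subunit of the Sec61 channel, had levels of 8.52, 7.59 and 8.73 with LPS plus IFNg, 10.09, 10.79 and 9.73 with IL4, and 10.13 and 10.00 in unstimulated cells. LPS plus IFNg lay below both other groups, which overlapped. Sec61b fell by 1.92 with LPS plus IFNg against IL4 (SE 0.37, adjusted p = 0.0149), and was the only member to fall against unstimulated cells, by 1.78 (SE 0.41, adjusted p = 0.0437). The fall against unstimulated cells was lost without any 1 of 6 libraries, which were all 3 LPS plus IFNg libraries, IL4 replicate 1 and both unstimulated ones (adjusted p from 0.0536 to 0.226). Among the fits with a library left out, the fall against IL4 was lost only without unstimulated replicate 2 (adjusted p = 0.0582). It also did not pass when the fit was blocked by replicate number (limma adjusted p = 0.0509). Ssr1, a subunit of the translocon-associated complex, had levels of 9.32, 9.43 and 9.57 with LPS plus IFNg, 10.53, 10.71 and 10.20 with IL4, and 9.56 and 9.86 in unstimulated cells. The IL4 libraries lay above all others, and Ssr1 fell by 1.04 with LPS plus IFNg against IL4 (SE 0.19, adjusted p = 0.0116).

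Counted over the list, 9 of the 11 calls came from the contrast between the stimuli. For LPS plus IFNg against IL4, 9 of 32 members fell and 0 rose, while 6.96% of all tested genes fell and 5.91% rose; 19 members had an unadjusted p under 0.05, 1 of them (Dnajb9) higher. The members' median log2 difference was -0.82, against 0.00 over all tested genes, and 25 of 32 differences were negative. All LPS plus IFNg libraries lay below all IL4 libraries for 18 members (14.8% of tested genes) and above them for 1 (12.4%). Setting the housekeeping means equal moved the median of all genes by 0.60 in this comparison and left the members at a median of -0.23 with 14 positive, 3 falls (Pdia4, Herpud1 and Sec61b) and 1 rise (Dnajb9). That scaling moves every gene of a library alike, so it cannot change the gap between the members and all genes. Under it Hsp90b1 (-0.66, adjusted p = 0.122), Ssr1 (-0.44, 0.221), Manf (-1.01, 0.0941), Dnajc3 (-0.71, 0.154), Calr (-0.90, 0.131) and Sel1l (-0.86, 0.125) no longer passed. As deposited, 5 members fell without LPS plus IFNg replicate 2 and 5 without unstimulated replicate 2; Hsp90b1, Pdia4, Herpud1 and Ssr1 fell whichever library was left out. With equal housekeeping means 77.2% of the genes called were higher, against 45.9% as deposited.

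For IL4 against unstimulated cells, 1 of 32 members rose (Pdia4) and 0 fell, while 0.514% of all tested genes rose and 0.793% fell; 15 members had an unadjusted p under 0.05. The members' median log2 difference was 0.78, against -0.01 over all tested genes, and 25 of 32 were positive. All 3 IL4 libraries lay above both unstimulated libraries for 17 members (11.7% of tested genes) and below them for 2, Atf6 and Dnajb9 (14.7%). Manf (1.58, adjusted p = 0.105), Hsp90b1 (0.88, 0.142) and Calr (1.47, 0.162) came nearest to the threshold after Pdia4. With equal housekeeping means the median was 0.85 and 26 were positive.

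For LPS plus IFNg against unstimulated cells, 0 of 32 members rose and 1 fell (Sec61b), while 3.72% of all tested genes rose and 4.25% fell; 3 members had an unadjusted p under 0.05 in limma, Sec61b, Sel1l and Ero1l. The members' median log2 difference was -0.18, against -0.04 over all tested genes, with 11 positive. All LPS plus IFNg libraries lay above both unstimulated ones for 4 members, Dnajb11, Ero1l, Ero1lb and Ppib (16.1% of tested genes), and below them for 9 (20.7%), so these shares were near those of all genes. The direction of the list here depended on the scaling: with equal housekeeping means, which moved the median of all genes by 0.66, the members' median was 0.48, 26 were positive, Ero1l and Dnajb11 rose, and Sec61b no longer passed (-1.12, adjusted p = 0.123). The share of higher genes among those called was then 80.5%, against 46.6% as deposited. The 3 comparisons share libraries in pairs, so they are not independent of each other.

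**Figure D4:**
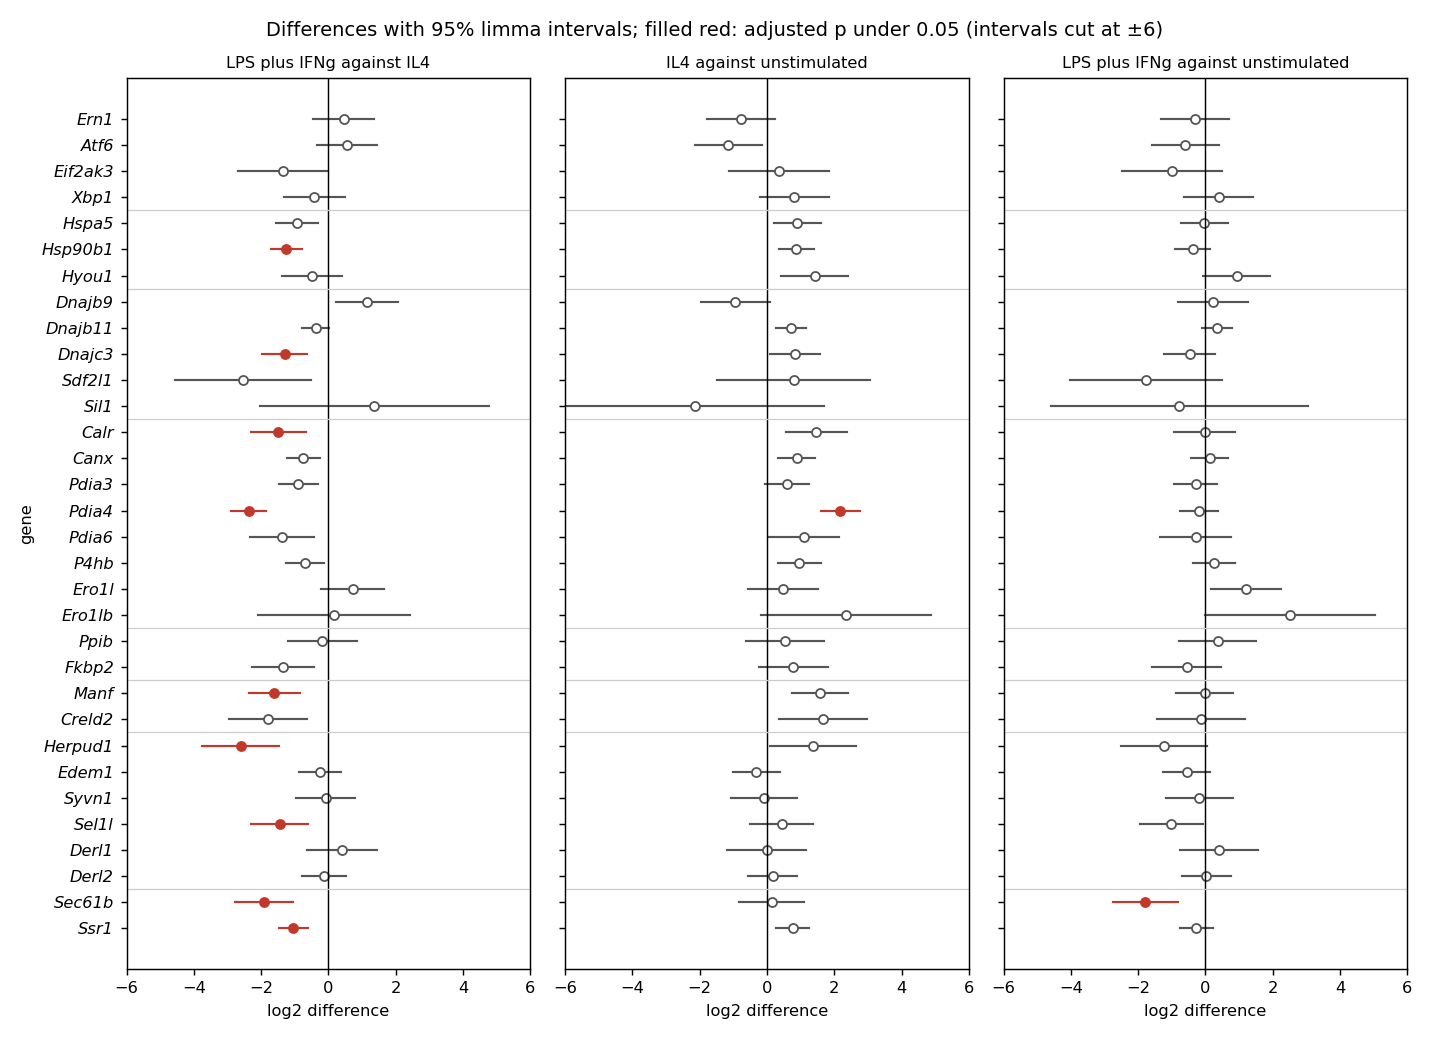
Log2 difference of each of the 32 members in the 3 comparisons (1 panel each), with 95% limma intervals; filled red points passed at an adjusted p of 0.05. In LPS plus IFNg against IL4, 25 of 32 points lie left of 0 (18 with equal housekeeping means), in IL4 against unstimulated cells 25 lie right of 0 (26), and in LPS plus IFNg against unstimulated cells 11 lie right of 0 (26 with equal housekeeping means).

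**Figure D5:**
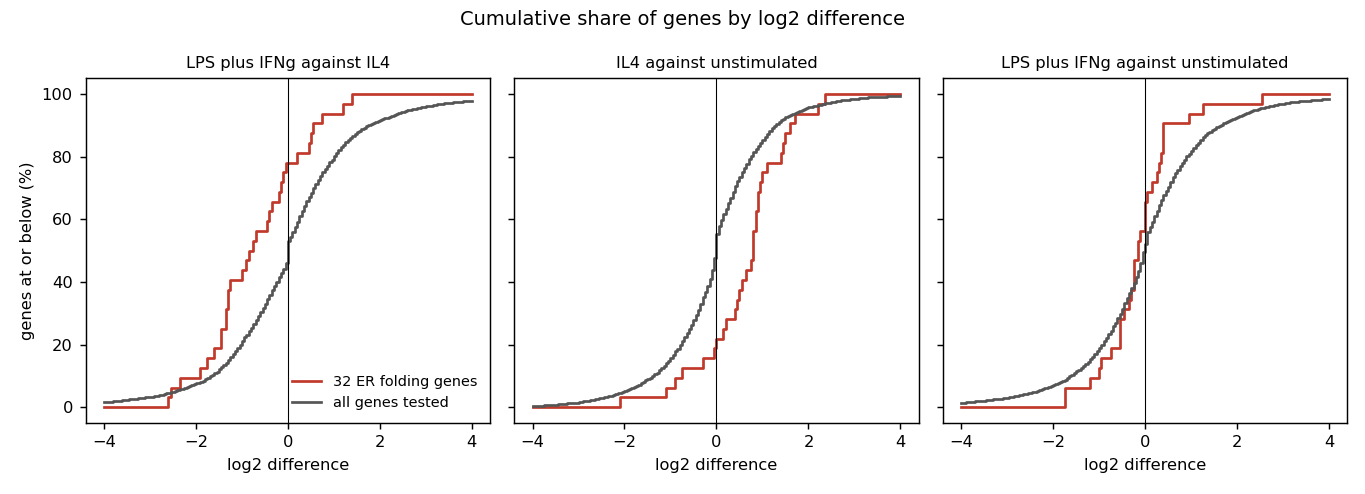
Cumulative share of genes (vertical axis, percent) at or below each log2 difference (horizontal axis) for the 32 members and for all 13615 tested genes, 1 panel a comparison. The members' curve lies left of that of all genes for LPS plus IFNg against IL4 (medians -0.82 and 0.00) and right of it for IL4 against unstimulated cells (0.78 and -0.01).

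The genes listed for the PERK branch and the integrated stress response, which include Atf4 itself, rose where they passed. Of the 14 such genes, 3 rose and 0 fell with LPS plus IFNg against IL4, where 5.91% of all tested genes rose and 6.96% fell, and 2 rose and 0 fell against unstimulated cells, where 3.72% rose and 4.25% fell. The list's median log2 difference was 0.67 against IL4 and 1.07 against unstimulated cells, where over all tested genes it was 0.00 and -0.04. Differences were positive in 9 and negative in 5 genes against IL4, and positive in 11 and negative in 3 against unstimulated cells. Among those lower than with IL4, Asns averaged 3.90 with LPS plus IFNg, 4.28 with IL4 and 3.65 in unstimulated cells. Chac1 was at 0 in every LPS plus IFNg library and averaged 1.54 with IL4 and 0.37 in unstimulated cells. Nupr1, a small stress-induced nuclear protein, had log2 levels of 7.45, 9.32 and 8.05 with LPS plus IFNg, 1.42, 3.22 and 2.05 with IL4, and 4.96 and 4.06 in unstimulated cells. The groups did not overlap, and Nupr1 rose by 6.04 against IL4 (adjusted p = 0.00232) and by 3.76 against unstimulated cells (adjusted p = 0.0339). Ppp1r15b, a subunit of the phosphatase that restores translation, had 9.69, 10.29 and 10.42 with LPS plus IFNg, 8.56, 9.01 and 9.20 with IL4, and 8.40 and 9.10 in unstimulated cells. It rose by 1.21 against IL4 (adjusted p = 0.0371) and by 1.38 against unstimulated cells (adjusted p = 0.0472), although the call against IL4 was kept in only 1 of the 8 fits that left out a library (adjusted p up to 0.115). Trib3, a pseudokinase induced by ATF4, had 5.85, 6.27 and 7.23 with LPS plus IFNg, 3.47, 0 and 2.56 with IL4, and 1.73 and 4.01 in unstimulated cells. It rose by 4.44 against IL4 (adjusted p = 0.0436), a call likewise kept in 1 of 8 such fits (adjusted p up to 0.132). Without IL4 replicate 2, where Trib3 was listed at 0, the difference from IL4 was 3.43 and did not pass (limma adjusted p = 0.0695). Against unstimulated cells Trib3 did not pass, and with a library left out its difference ranged from 2.44 to 4.72.

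Ddit3, Ppp1r15a and Atf4 did not pass as deposited. Ddit3 (CHOP), a transcription factor tied to death under prolonged stress, had 7.85, 8.05 and 9.88 with LPS plus IFNg, 6.78, 7.04 and 7.13 with IL4, and 7.24 and 7.45 in unstimulated cells. Every LPS plus IFNg library lay above all others, with replicate 3 far up, and the difference was 1.61 from IL4 (adjusted p = 0.0915) and 1.25 from unstimulated cells (adjusted p = 0.297). Ppp1r15a (GADD34), the stress-induced partner of that phosphatase, had 8.75, 9.30 and 8.52 with LPS plus IFNg, 7.60, 8.62 and 7.96 with IL4, and 7.59 and 7.45 in unstimulated cells. It lay above both unstimulated libraries in all LPS plus IFNg libraries, with a difference of 1.34 (adjusted p = 0.0695). Atf4 itself had 11.77, 11.88 and 12.26 with LPS plus IFNg, 11.92, 11.30 and 11.08 with IL4, and 10.58 and 11.31 in unstimulated cells, with differences of 0.54 from IL4 (adjusted p = 0.329) and 1.02 from unstimulated cells (adjusted p = 0.132). With equal housekeeping means, Ddit3 (2.21, adjusted p = 0.0111) and Ppp1r15a (1.39, 0.0220) rose against IL4, and Ddit3 (1.91, 0.0458), Ppp1r15a (2.004, 0.00976) and Atf4 (1.69, 0.0225) rose against unstimulated cells.

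Among 13 tested genes of the other parts of the IRE1 and ATF6 branches, 1 rose and 1 fell with LPS plus IFNg against IL4, near the shares of all tested genes (5.91% and 6.96%). Against unstimulated cells 2 of the 13 rose and 0 fell, where 3.72% of all tested genes rose and 4.25% fell, so the share that rose was larger there. Tmbim6 (BAX inhibitor 1), a membrane protein known to restrain IRE1, had 11.79, 11.60 and 11.49 with LPS plus IFNg, 10.12, 10.35 and 9.87 with IL4, and 10.75 and 10.56 in unstimulated cells. The groups did not overlap, and it rose by 1.51 against IL4 (adjusted p = 0.00231) and by 0.97 against unstimulated cells (adjusted p = 0.0301). Creb3, an ER-bound transcription factor, rose by 2.10 against unstimulated cells (adjusted p = 0.0132), with a mean of 7.12 ± 0.29 (SD, n = 3) with LPS plus IFNg and 5.03 ± 0.30 (SD, n = 2) in unstimulated cells. Mbtps1, the protease that makes the first cut in ATF6, fell by 1.29 against IL4 (adjusted p = 0.0152), with means of 6.50 ± 0.12 with LPS plus IFNg and 7.79 ± 0.29 with IL4 (SD, n = 3 each).

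Some folding genes outside the member list also fell. Of 29 such enzymes and chaperones that could be tested, 4 fell and 0 rose against IL4 (6.96% of all tested genes fell), and 3 fell and 0 rose against unstimulated cells (4.25% fell). Uggt1, which marks unfolded glycoproteins for another round with calreticulin and calnexin, had 6.65, 6.40 and 6.59 with LPS plus IFNg, 8.22, 8.46 and 7.79 with IL4, and 8.05 and 7.87 in unstimulated cells. It fell by 1.61 against IL4 (adjusted p = 0.00495) and by 1.41 against unstimulated cells (adjusted p = 0.0196). Tmx3, a membrane-bound disulfide isomerase, and Erp29, a chaperone of the lumen, also fell against both, and Cnpy2 fell by 1.40 against IL4 (adjusted p = 0.0209). Of 24 translocon and signal peptide genes, 1 fell and 1 rose against IL4, shares no larger than those of all tested genes: Spcs3, a subunit of signal peptidase, fell by 1.56 against IL4 (adjusted p = 0.00612), with means of 7.50 ± 0.35 with LPS plus IFNg and 9.06 ± 0.08 with IL4 (SD, n = 3 each). Serp1, a protein known to stabilise membrane proteins under ER stress, rose by 1.02 (adjusted p = 0.0244). Of 18 genes of COPII transport out of the ER, 2 fell and 0 rose against IL4 (6.96% and 5.91% of all tested genes): Sec13, a coat subunit, by 1.09 (adjusted p = 0.00879), and Kdelr2, a receptor that returns chaperones to the ER, by 1.28 (adjusted p = 0.0107).

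None of 20 further degradation genes passed in any comparison in limma, with 0 at an unadjusted p under 0.05 for LPS plus IFNg against IL4, 2 for LPS plus IFNg against unstimulated cells and 1 for IL4 against unstimulated cells. For IL4 against unstimulated cells, 0 genes of any of these 6 lists passed in limma, and 1 to 5 genes per list had an unadjusted p under 0.05. Against IL4, Nupr1, Tmbim6, Uggt1, Spcs3, Sec13 and Kdelr2 passed whichever library was left out. Tmx3 passed in 0 and Erp29 in 2 of those 8 fits (adjusted p up to 0.121 and 0.109), Cnpy2 and Serp1 in 4 (up to 0.0610 and 0.0762), and Mbtps1 was lost without IL4 replicate 1 (0.0522). Against unstimulated cells, Creb3 was lost without LPS plus IFNg replicate 2 (0.0529), Uggt1 without that library or either unstimulated one (up to 0.0912), and Nupr1 without any LPS plus IFNg or unstimulated library (up to 0.202). Tmbim6 and Tmx3 passed there in 2 of 8 fits (up to 0.145 and 0.203), Erp29 in 5 (up to 0.109) and Ppp1r15b in 1 (up to 0.25). With equal housekeeping means, none of the falls named in these lists passed: Uggt1 (-1.01, adjusted p = 0.0545), Spcs3 (-0.96, 0.0557), Kdelr2 (-0.69, 0.0982), Sec13 (-0.49, 0.189), Mbtps1 (-0.69, 0.190), Cnpy2 (-0.81, 0.174), Tmx3 (-0.24, 0.501) and Erp29 (-0.13, 0.701) against IL4, nor Uggt1 (-0.75, 0.211), Tmx3 (-0.37, 0.389) and Erp29 (-0.33, 0.418) against unstimulated cells.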

How the data were processed

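Per the labels' protocols, polyadenylated RNA was captured with oligo-dT, barcoded at first-strand synthesis, pooled by Actb qPCR and amplified by PCR into strand-specific 3' end libraries. No molecular identifiers are described. Per the submitters' processing notes, TopHat and the mouse build mm9 were used; of the counting tool, the sources used here say nothing. The authors deposited log2 expression values, quantile normalised per the table's name. How zero counts were treated, and whether values are per length, is not stated, so levels are compared within a gene only. Depth is unknown, and quantile normalisation can hide an overall difference in RNA.

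Of 20259 rows, 1 had no symbol, and 6643 genes with 1 value in every library were left out, which left 13615. A linear model with 1 mean for each group and an intensity trend in the prior variance was fitted over the 8 libraries with limma 3.58.1 (R 4.3.3; 5 residual and 2.31 prior degrees of freedom). Tests were two-sided, with Benjamini-Hochberg adjustment over all genes tested and a threshold of 0.05. Intervals are limma's at 95%. The fit was tested on simulated data. The members and the 6 lists of related genes were chosen with earlier results of these data known. Values in every library are given for members that passed and for Ern1, Atf6, Eif2ak3, Xbp1, Hspa5 and Hsp90b1. Of the other lists, up to 3 passing genes with the largest differences per comparison are named, and always Atf4, Ddit3, Ppp1r15a and Trib3; Erp29, Dnajb11, Ero1l and other members with values were named after their values were seen. Vimp, March6, Bag6, Hm13, Fam8a1 and Rtcb were not used here. The alternatives tried left out the intensity trend, the third group, the lowest 0.25 of genes by mean, or each library in turn, added 1 before the log, set the means of 13 housekeeping genes equal, or blocked by replicate number. Sequences come from RefSeq promoters of GRCm38.p6, used for sequence only, since the table rests on mm9.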

Additional observations from a re-analysis of the deposited data

How the results depend on the processing

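Depth is unknown, and with 2 unstimulated libraries the comparisons with unstimulated cells have the least precision.

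For LPS plus IFNg against IL4, equal housekeeping means gave 1560 genes higher and 462 lower, with 1 member higher and 3 lower. With the lowest 0.25 of genes left out, 15 members were lower. The model was fitted anew there on 10211 genes, so the p-values themselves could change as well as their adjustment. For LPS plus IFNg against unstimulated cells, equal housekeeping means gave 1039 genes higher and 252 lower, with 2 members higher and 0 lower, and 0 members were lower with no intensity trend or with only the 2 groups compared. For IL4 against unstimulated cells, only the 2 groups compared gave 7 genes higher, 0 lower and 0 members higher, with 1510 genes at an unadjusted p under 0.05 in limma, and without the lowest 0.25 of genes 110 genes and 2 members (Pdia4 and Manf) were higher. The causes were not tested. Without an intensity trend, Dnajc3 (adjusted p = 0.0577), Calr (0.0607) and Sel1l (0.0725) no longer passed against IL4.

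Same-numbered libraries deviated little together: correlations of their deviations from the group means lay between -0.08 and 0.07. This does not show whether the libraries were paired by mouse or culture. With the replicate block, IL4 against unstimulated cells had 7 genes higher, 1 lower and 0 members higher. LPS plus IFNg against unstimulated cells had 255 higher, 256 lower and 0 members lower. For LPS plus IFNg against IL4, 7 members were lower, and Calr (limma adjusted p = 0.0620) and Sec61b (0.0509) no longer passed.

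With each library left out in turn, LPS plus IFNg against IL4 gave 580 to 774 genes higher and 658 to 804 lower, 0 members higher and 5 to 10 lower. LPS plus IFNg against unstimulated cells gave 341 to 556 higher, 309 to 598 lower, 0 to 1 members higher and 0 to 1 lower. IL4 against unstimulated cells gave 36 to 123 higher, 45 to 183 lower, 0 to 1 members higher and 0 lower. Of 11 calls on members, 4 were kept whichever library was left out.

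Among the 84 pairs of a gene and a comparison followed under every setting, signs changed 19 times, always between values that did not pass. Over all 32 members, equal housekeeping means changed the sign of 7 for LPS plus IFNg against IL4 and of 15 for LPS plus IFNg against unstimulated cells. For LPS plus IFNg against unstimulated cells with equal housekeeping means, the log2 difference became 0.35 in Ern1, 0.069 in Atf6, 0.63 in Hspa5, 0.28 in Hsp90b1, 0.19 in Dnajc3, 0.65 in Calr, 0.48 in Pdia4, 0.64 in Manf and 0.39 in Ssr1, and Xbp1 became 0.17 against IL4. Against unstimulated cells, Manf was at 0.16 with the replicate block. With a library left out it ranged from -0.25 to 0.12 in Manf (positive without LPS plus IFNg replicate 2 or 3 or unstimulated replicate 2), from -0.33 to 0.29 in Calr (positive without LPS plus IFNg replicate 1 or 2 or unstimulated replicate 2) and from -0.29 to 0.20 in Hspa5 (positive without LPS plus IFNg replicate 1). For IL4 against unstimulated cells, Sec61b ranged from -0.15 (without IL4 replicate 2) to 0.38.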
